A study of Homo sapiens with 2 samples.

Results

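The YAP/TEAD axis was examined in cells labelled A549, with and without the NOTCH1 intracellular domain. It was read through 10 genes chosen by name from the 19198 gene rows of each deposited table. The factors were YAP1, WWTR1 (TAZ) and TEAD1, and the targets were ANKRD1, CTGF (CCN2), CYR61 (CCN1), AMOTL2, AJUBA, LATS2 and AXL. All 10 were found. They were chosen with the higher level of ANKRD1 already known, so the values of ANKRD1 are a description, and the question was whether the higher level extends to other targets.

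A549 is an established line of human lung adenocarcinoma, a form of non-small-cell lung cancer (NSCLC). The A549-NICD1 cells overexpressed NICD1, the fragment of NOTCH1 that is freed when the receptor is cleaved and that works in the nucleus with the DNA-binding protein RBPJ. The A549-Vector cells were the vector control. The methods describe stable lines made by viral infection and antibiotic selection, and do not say whether the sequenced cells were a clone or a pool. Each condition had 1 library of polyA RNA, so that no difference below has a replicate check and no test of the conditions was possible. Intervals are given at 95% and reflect the counting of reads alone, as reads that carry no molecular identifiers cannot be taken for separate molecules.

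YAP1 and its relative WWTR1 are transcriptional coactivators without a DNA-binding domain, and they reach DNA mainly through the TEAD factors. The Hippo kinases STK3 and STK4, acting through LATS1 and LATS2, phosphorylate YAP1 and WWTR1 and keep them out of the nucleus. In epithelial and lung cancer cells active YAP/TEAD is known to induce CTGF, CYR61 and ANKRD1, and it also induces inhibitors of its own pathway, such as AMOTL2 and LATS2. Messenger RNA levels do not show the phosphorylation or the location of YAP1.

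Levels are given in FPKM, which are reads scaled to the length of the gene and to the depth of the library, and can therefore be compared between genes. The depth recovered from the values was 48602848 reads for A549-Vector, with 48528434 for A549-NICD1. The overexpressed gene itself, NOTCH1, was at 5.40 FPKM in A549-Vector, against 2865 FPKM in A549-NICD1. HES5, a classical Notch target, was at 7.78 and 115 FPKM. RFC4, a subunit of the DNA replication factor C complex, was at 39.5 and 4075 FPKM, above NOTCH1 itself in A549-NICD1, and its part in the results below was not tested. The markers did not establish the label of the cells, so A549 is used here as a label. The list for A549 was met less fully than a list for the HEK293 lineage. Of 16 genes listed for A549, 7 reached 1 FPKM in both libraries and 8 were under 1 FPKM in both. Among these 8, KRT7, KRT19 and FGB were at 0 reads in both. AKR1B10 had 2 and 1 reads, CEACAM6 had 0 and 3 reads, and ALDH1A1 was at 0.269 and 0.165 FPKM. The summed level of that list was 180.0 FPKM in A549-Vector, against 327 FPKM in A549-NICD1, most of it from the keratins KRT8 (85.9 and 176 FPKM) and KRT18 (73.1 and 130.4 FPKM). All 9 genes listed for the HEK293 lineage reached 1 FPKM in each library, with a sum of 399 and 382 FPKM. The highest of the 9 was CDKN2A, at 139 and 138 FPKM. The part of cell identity in the results below was not tested.

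The 3 factors among the members were slightly lower in A549-NICD1. YAP1, at chr11:102110447-102233424 on the plus strand (RefSeq, GRCh38.p14, as for all positions here), was at 22.7 FPKM in A549-Vector (5812 reads) and 18.7 FPKM in A549-NICD1 (4779 reads). Its log2 fold change, A549-NICD1 over A549-Vector, was -0.23 (interval -0.28 to -0.17). WWTR1, at chr3:149517235-149724788 on the minus strand, was at 12.2 FPKM (2995 reads) and 10.4 FPKM (2536 reads), for a log2 fold change of -0.18 (interval -0.26 to -0.11). TEAD1, at chr11:12674421-12944737 on the plus strand, was at 16.7 FPKM (3831 reads) and 14.6 FPKM (3328 reads), for a log2 fold change of -0.15 (interval -0.21 to -0.08). The differences of all 3 factors were beyond counting error, and all were well under 1.5-fold. Their log2 fold changes were at percentiles 19.5, 23.2 and 27.1 of all genes with 10 or more reads in either library. In bulk RNA, fewer cells that express a gene and less of its RNA per cell cannot be told apart. The summed level of these 3 factors was 51.6 FPKM in A549-Vector, against 43.6 FPKM in A549-NICD1. This sum leaves out the other TEAD factors, which did not move together. TEAD4 was at 30.5 and 34.4 FPKM and TEAD3 at 7.27 and 6.20 FPKM.

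ANKRD1 stood apart from every other member. It encodes an ankyrin repeat protein of the nucleus and the sarcomere that is best known from heart muscle and is a direct YAP/TEAD target in many other cells. The gene lies at chr10:90912096-90921087 on the minus strand. It was at 8.40 FPKM in A549-Vector (806 reads) and 120.2 FPKM in A549-NICD1 (11514 reads), a 14.8-fold higher level (counting interval 13.8 to 15.97) with a log2 fold change of 3.89 (interval 3.79 to 3.997). In A549-Vector its level was the seventh of the 10 members, near the middle of all genes with 10 or more reads in either library (percentile 48.9). In A549-NICD1 it was the highest of the 10, at percentile 97.1 of all genes. Among the 13324 genes with a sum of 100 reads or more over the pair of libraries, its log2 fold change ranked 11. Of 4822 such genes whose A549-Vector level was within 2-fold of that of ANKRD1, ANKRD1 itself included, 4 had a log2 fold change above 2 and 3 were above 100 FPKM in A549-NICD1.

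**Figure D1:**
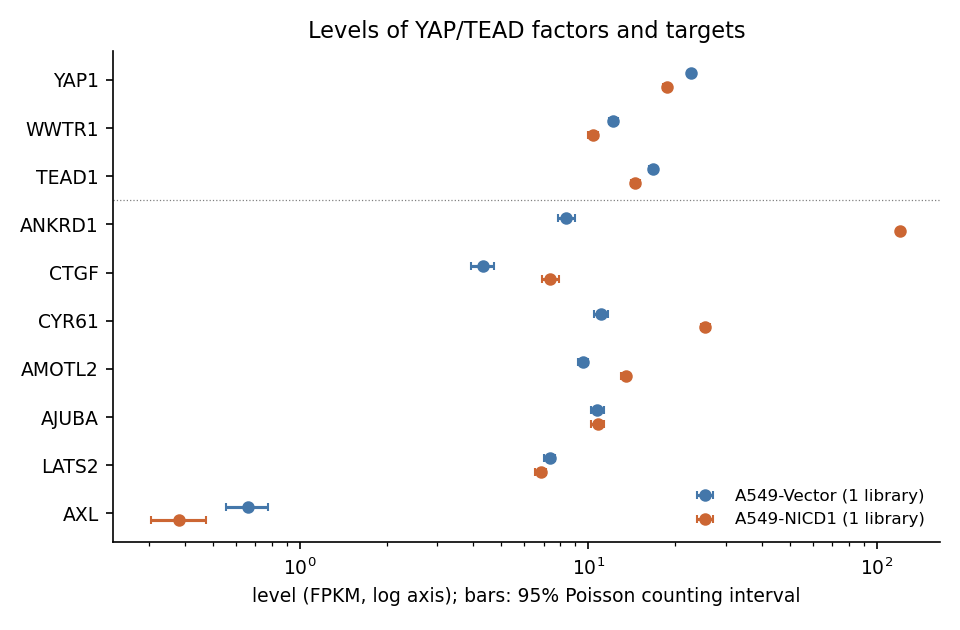
Level of each of the 10 genes in FPKM on a log axis, in the A549-Vector library (blue) and the A549-NICD1 library (orange), with 95% Poisson counting intervals as bars. The 3 factors, above the dotted line, lie slightly to the left in A549-NICD1, while ANKRD1 moves from 8.40 to 120.2 FPKM and CYR61, CTGF and AMOTL2 move to the right by less.

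CYR61 and CTGF, which encode related secreted matricellular proteins and serve as the usual readouts of YAP/TEAD activity, were also higher in A549-NICD1, by far less than ANKRD1. CYR61, at chr1:85580761-85583950 on the plus strand, was at 11.1 FPKM in A549-Vector (1238 reads) and 25.4 FPKM in A549-NICD1 (2833 reads). This was 2.38-fold higher (interval 2.22 to 2.54), for a log2 fold change of 1.25. CTGF, at chr6:131948176-131951372 on the minus strand, was at 4.30 FPKM (490 reads) and 7.38 FPKM (839 reads). This was 1.78-fold higher (interval 1.59 to 1.99), for a log2 fold change of 0.83. Among the 13324 genes with at least 100 reads summed, CYR61 ranked 90 and CTGF ranked 208.

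The targets that act back on the Hippo pathway did not move together. AMOTL2, a junctional scaffold of the angiomotin family that binds YAP1, lies at chr3:134355345-134375417 on the minus strand. It was at 9.57 FPKM in A549-Vector (2324 reads) and 13.5 FPKM in A549-NICD1 (3267 reads), 1.46-fold higher with a log2 fold change of 0.55 (interval 0.47 to 0.62). LATS2, one of the kinases that inactivate YAP1, lies at chr13:20973036-21061586 on the minus strand and was at 7.34 FPKM (1977 reads) and 6.84 FPKM (1841 reads). AJUBA, a LIM protein that restrains LATS kinases, lies at chr14:22971177-22982551 on the minus strand and was at 10.8 FPKM in each library, with 1631 reads in each. The counting intervals of LATS2 (-0.14 to 0.05) and AJUBA (-0.04 to 0.16) held 0.

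AXL, a receptor tyrosine kinase linked to invasion and drug resistance in lung cancer, was the weakest of the 10 genes and the one that was lower by the most. The gene lies at chr19:41219223-41261766 on the plus strand. It was at 0.659 FPKM in A549-Vector (145 reads) and 0.382 FPKM in A549-NICD1 (84 reads), for a log2 fold change of -0.73 (interval -1.14 to -0.33). Its level in A549-Vector was at percentile 16.2 of all genes, so this difference rests on few reads.

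Beside all genes, the higher levels were limited to part of the targets. Of the 10 members, 2 (ANKRD1 and CYR61) had a log2 fold change above 1, against 4.29% of the 15299 genes with 10 or more reads in either library and 1.19% of the 13324 genes with at least 100 reads summed, a filter that all 10 members passed. At a fold of 1.5, 3 of the 10 were higher (ANKRD1, CYR61 and CTGF) against 7.42% and 2.98% of genes under these filters, and 1 was lower (AXL) against 6.14% and 3.84%. The other 6 were within 1.5-fold, against 86.4% and 93.2%. No member was below -1, against 2.22% and 0.653%. The log2 fold change was above 0 in 5 of the 10 members, against 49.5% and 48.1% of genes. Over the 6 targets other than ANKRD1 the median log2 fold change was 0.30, with 4 of 6 above 0, beside a median of -0.003 over the 15299 genes. Those above 0 include AJUBA, with 1631 reads in each library. Its log2 fold change was 0.06 (interval -0.04 to 0.16), or 0.002 with scaling by total depth. The choice of members was made with ANKRD1 in view, so its own place in these counts carries no weight.

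**Figure D2:**
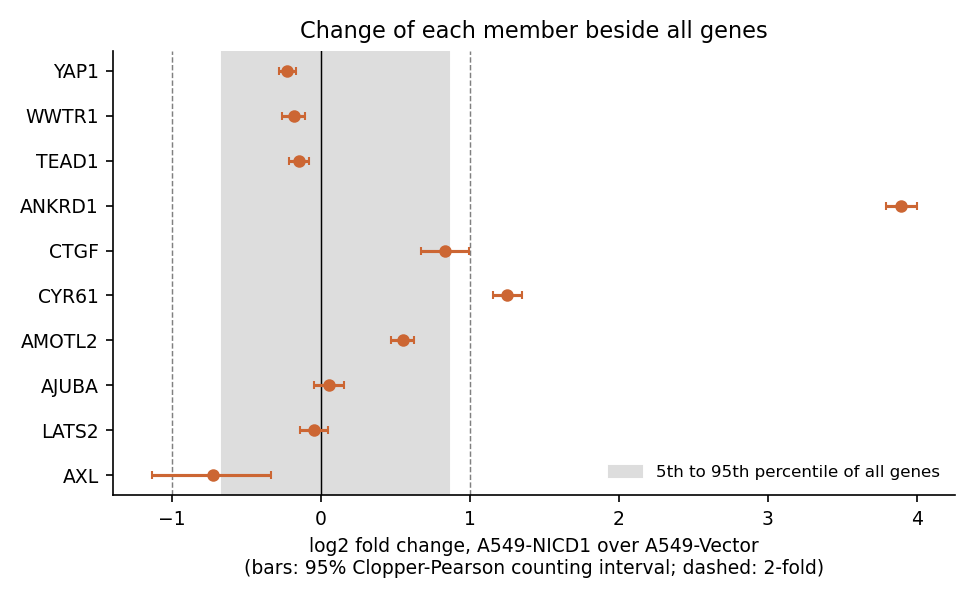
Log2 fold change of each of the 10 genes, A549-NICD1 over A549-Vector, with 95% Clopper-Pearson counting intervals; the grey band spans the middle 90% of the 15299 genes with 10 or more reads in either library, and dashed lines mark 2-fold. ANKRD1 at 3.89 and CYR61 at 1.25 lie outside the band on the right, CTGF at 0.83 lies just inside its edge, and AXL at -0.73 lies outside on the left. For the 13324 genes with at least 100 reads summed, a filter that all 10 passed, the middle 90% spans -0.52 to 0.43 (not drawn). CTGF and AMOTL2, at 0.55, also lie above that narrower range, and AXL lies below it.

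The summed level of the 7 targets was 52.1 FPKM in A549-Vector, against 184 FPKM in A549-NICD1. ANKRD1 made up 16.1% of this sum in A549-Vector and 65.2% in A549-NICD1. Without ANKRD1 the sum was 43.7 and 64.3 FPKM. The order of the members changed as well. In A549-Vector it ran YAP1, TEAD1, WWTR1, CYR61, AJUBA, AMOTL2, ANKRD1, LATS2, CTGF and AXL, and among neighbours in that order the counting intervals overlapped for CYR61 and AJUBA. In A549-NICD1 it ran ANKRD1, CYR61, YAP1, TEAD1, AMOTL2, AJUBA, WWTR1, CTGF, LATS2 and AXL, with overlap between AJUBA and WWTR1 and between CTGF and LATS2.

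**Figure D3:**
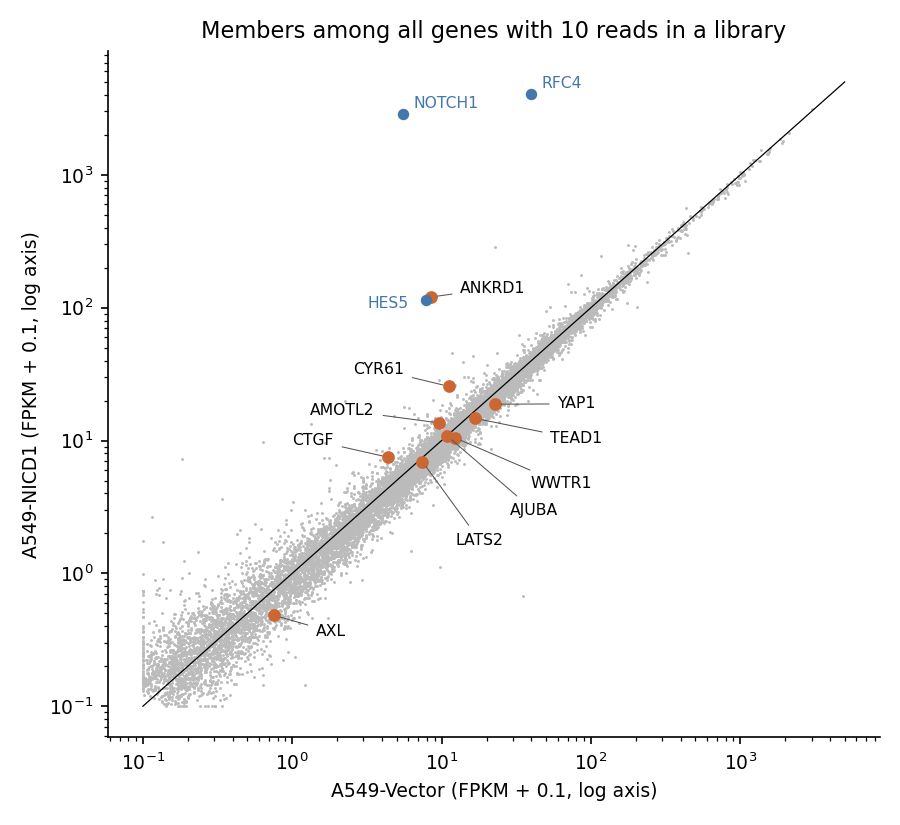
Each grey point is a gene with 10 or more reads in either library, placed by its level in A549-Vector and in A549-NICD1 (FPKM + 0.1, log axes), with equal levels on the line. Orange points are the 10 members and blue points are NOTCH1, RFC4 and HES5. ANKRD1 lies beside HES5, while the other members lie on or near the cloud of all genes.

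The gene whose levels were most like those of ANKRD1 was HES5, at a distance of 0.129 on the log2(FPKM + 0.1) scale over the 2 libraries. The next were much farther away. ATF3, a stress-induced transcription factor, was at 11.7 and 45.4 FPKM (distance 1.48). HERPUD1, a gene of the endoplasmic reticulum stress response, was at 16.1 and 42.9 FPKM (distance 1.75). DUSP1, a phosphatase that is induced early by growth signals, was at 13.8 and 38.9 FPKM (distance 1.77), and CALCB, a calcitonin-related peptide, was at 22.7 and 286 FPKM (distance 1.90). With only 2 libraries such likeness says nothing beyond a similar level and fold.

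The higher level of ANKRD1 was not shared by the genes around it. The closest expressed protein-coding neighbour, RPP30, a subunit of ribonuclease P that lies 3.54 kb away, was at 19.7 FPKM in A549-Vector, against 20.5 FPKM in A549-NICD1, for a log2 fold change of 0.11 (interval 0.04 to 0.18). HTR7, 54.1 kb away on the same side, was at 0.520 and 0.552 FPKM. On the far side PCGF5, at 235 kb, was at 11.3 and 11.1 FPKM. Of the 6 nearest protein-coding genes with 10 or more reads, 3 on each side, the largest log2 fold change was 0.28, that of KIF20B at 1137 kb.

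**Figure D4:**
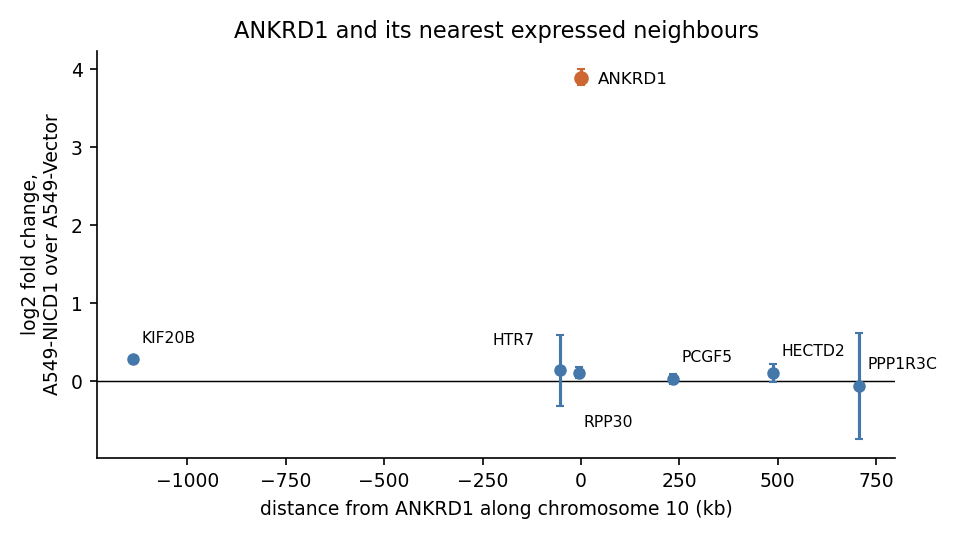
Log2 fold change of ANKRD1 (orange) and of the 3 nearest protein-coding genes with 10 or more reads on each side (blue), by distance along chromosome 10 in kb, with 95% counting intervals. The neighbours lie between -0.06 and 0.28, and ANKRD1 lies at 3.89.

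Promoter sequence was read from RefSeq (GRCh38.p14) for 8 of the 10 members, as the 250 bases before each start site. TEAD1 and CYR61 had no entry. Hexamers of the TEAD motif (GGAATG, or CATTCC on the other strand) and of the RBPJ motif (TGGGAA, or TTCCCA) were searched on both strands, and the motifs can share letters. A TEAD hexamer was in 11.9% and an RBPJ hexamer in 20.8% of 35114 windows of all genes. The windows of ANKRD1 and CTGF are shown because they hold repeated TEAD hexamers, and that of HES5 because its levels were those nearest to ANKRD1. That of AMOTL2 (the start farther inside the gene) is an example of those that hold 1. Windows of YAP1, AJUBA and AXL also hold 1 each and are not shown. YAP1 and AXL were lower in A549-NICD1 and AJUBA was equal, so the windows shown are no fair sample. Capitals mark TEAD and RBPJ hexamers. The windows lie at chr10:90921088-90921337, chr6:131951373-131951622, chr3:134374448-134374697 and chr1:2530264-2530513, in the order shown, all on the minus strand and written 5′ to 3′.
ANKRD1: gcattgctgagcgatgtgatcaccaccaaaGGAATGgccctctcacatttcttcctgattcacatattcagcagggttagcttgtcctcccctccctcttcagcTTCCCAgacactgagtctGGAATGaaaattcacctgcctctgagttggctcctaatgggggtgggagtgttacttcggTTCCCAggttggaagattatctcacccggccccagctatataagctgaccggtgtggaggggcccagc
CTGF: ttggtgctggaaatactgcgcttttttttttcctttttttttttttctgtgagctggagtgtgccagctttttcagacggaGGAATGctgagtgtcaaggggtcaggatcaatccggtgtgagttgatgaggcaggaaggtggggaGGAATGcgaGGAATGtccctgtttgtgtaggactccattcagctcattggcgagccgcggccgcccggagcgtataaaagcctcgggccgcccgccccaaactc
AMOTL2: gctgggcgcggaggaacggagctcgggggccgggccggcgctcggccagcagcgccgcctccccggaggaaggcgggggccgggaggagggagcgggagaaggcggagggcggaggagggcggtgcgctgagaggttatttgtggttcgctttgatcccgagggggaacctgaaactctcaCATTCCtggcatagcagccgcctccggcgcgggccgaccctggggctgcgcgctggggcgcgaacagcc
HES5: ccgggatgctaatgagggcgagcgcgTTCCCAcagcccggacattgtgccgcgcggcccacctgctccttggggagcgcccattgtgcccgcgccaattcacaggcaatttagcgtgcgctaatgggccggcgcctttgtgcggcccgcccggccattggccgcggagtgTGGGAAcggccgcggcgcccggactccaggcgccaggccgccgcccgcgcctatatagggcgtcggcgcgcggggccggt

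In the ANKRD1 window the TEAD hexamers began 220 and 128 bases before the start, and the RBPJ hexamers began 146 and 68 bases before it. GENCODE 29 starts the ANKRD1 transcript 189 bases farther upstream than RefSeq. A combination of at least 2 hexamers of each kind, counted after those of ANKRD1 had been seen, was in 32 of the 35114 windows (0.0911%). In the CTGF window 3 TEAD hexamers began 169, 104 and 95 bases before the start, a number reached in 29 windows (0.0826%). The HES5 window held RBPJ hexamers at 224 and 80 bases and no TEAD hexamer. In all, 6 of the 8 members with a window had a TEAD hexamer in at least 1 of their windows. Over all genes with a window this was so for 3902 of 27303. The 6 were YAP1, ANKRD1, CTGF, AMOTL2, AJUBA and AXL, of which only ANKRD1 and CTGF were higher by 1.5-fold. ANKRD1 and AXL, 2 of the 8, were the members with an RBPJ hexamer. This is near the share over all genes, 6720 of 27303. The AP-1 motif TGANTCA, present in 6.57% of windows, was found in that of ANKRD1 and in no other member's, and the CArG box of the serum response factor SRF, present in 1.16%, was found in none of the members' windows. A match is not a binding site, and a missing match covers only these letters in these windows.

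Genes with repeated hexamers were compared with all genes. Of 121 genes with at least 2 TEAD hexamers and 10 or more reads in either library, 9 (7.44%) were above 1 in log2 fold change, against 479 of 12339 genes with any window (3.88%). Of 429 genes with at least 2 RBPJ hexamers, 19 (4.43%) did. Of 8 genes with at least 2 of each, 1 did, which was ANKRD1 itself. Their median log2 fold change was 0.02, beside -0.003 for all genes with a window. ANKRD1 is also among the 9 and among the 19, and its own place in these counts carries no weight. The shares have no test.

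A wider list of YAP/TAZ target genes held 22, of which 6 are members whose values are given above. Of the 16 others, 9 were higher and 7 lower, with a median log2 fold change of 0.10. Among these 16, 2 were above 1 (4.29% of all genes), 4 were at least 1.5-fold higher (7.42%) and 2 at least 1.5-fold lower (6.14%). All 22 had at least 100 reads summed, and under that filter the shares over all genes were 1.19%, 2.98% and 3.84%. Of all 22, members included, 13 were higher and 9 lower in A549-NICD1, with a median log2 fold change of 0.12, and 7 were at least 1.5-fold higher and 3 at least 1.5-fold lower. Those above a log2 fold change of 1 were ANKRD1, FJX1, CYR61 and F3. FJX1, a secreted relative of the Drosophila four-jointed protein, was at 9.56 FPKM in A549-Vector, against 28.4 FPKM in A549-NICD1, for a log2 fold change of 1.63 (interval 1.53 to 1.72). F3, the tissue factor that starts blood coagulation, was at 1.17 and 2.62 FPKM, for a log2 fold change of 1.21 (interval 0.91 to 1.52), or 0.77 with a pseudocount of 1 FPKM. AXL was the lowest of the list.

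Upstream of YAP1, 24 of 25 listed Hippo kinases and scaffolds were within 1.5-fold, near the share over all genes (93.2% of those with at least 100 reads summed, 86.4% of those with 10 or more reads in either library). The median log2 fold change of the 25 was -0.05. The kinases STK3, STK4, LATS1 and LATS2 had log2 fold changes of -0.28, -0.01, 0.10 and -0.05. The gene outside 1.5-fold was AMOT, the founding angiomotin, which binds YAP1 and the actin cytoskeleton. It was at 205 FPKM in A549-Vector (66946 reads) and 102 FPKM in A549-NICD1 (33210 reads), for a log2 fold change of -0.96 (interval -0.97 to -0.94), just inside 2-fold. Its relatives went the other way. AMOTL2, described above, was the highest of the list, and AMOTL1 was at 19.1 and 23.5 FPKM, for a log2 fold change of 0.35 (interval 0.31 to 0.40).

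Among the TEAD factors, TEAD4 and not TEAD1 had the highest level, at 30.5 FPKM in A549-Vector, against 34.4 FPKM in A549-NICD1, for a log2 fold change of 0.23 (interval 0.15 to 0.31). TEAD2 was at 16.3 and 16.8 FPKM, and TEAD3 was at 7.27 and 6.20 FPKM. The Vestigial-like cofactors compete with YAP1 for TEADs. VGLL3 was at 3.43 and 2.42 FPKM, VGLL4 at 6.84 and 6.61 FPKM, and VGLL2 was the lowest by fold change of this list of 8, at 1.33 and 0.837 FPKM (interval -1.03 to -0.20). VGLL1 had 0 reads in A549-Vector and 1 read in A549-NICD1. None of the 7 genes of this list with 10 or more reads in either library passed a log2 fold change of 1, and their median was -0.15.

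CTGF, CYR61 and ANKRD1 can also be induced by SRF with its MRTF coactivators, which respond to actin. Of 17 genes listed for this pathway, 9 were higher and 8 lower, with a median log2 fold change of 0.13. SRF was at 25.7 and 29.7 FPKM, MRTFA at 15.8 and 14.4 FPKM, and MRTFB at 8.69 and 7.44 FPKM. The genes above 1 were the weakly expressed CNN1, at 0.579 and 1.17 FPKM, and ACTG2, with 0 and 11 reads and so at least 3.81-fold higher against a floor of 3 reads, without the counting error of the 11 reads. These 2 of 17 stand beside 4.29% of all genes. Both are smooth muscle genes, as are TAGLN (3.997 and 3.81 FPKM) and ACTA2 (1.87 and 1.35 FPKM), which were not higher.

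Because ANKRD1 is a muscle gene in the body, its relatives and partners in muscle were also read. Of 16 listed genes, 11 were under 1 FPKM in both libraries, and 13 had 10 or more reads in either library. Of these 13, 11 were above 0 in log2 fold change (49.5% of all such genes), 6 were above 1 (4.29%) and 7 were at least 1.5-fold higher (7.42%), ANKRD1 included. Their median was 0.74. Much of this rests on low counts. With at least 100 reads summed 7 genes remained, with a median of 0.36. Of these, only ANKRD1, chosen for its level, and MYOM2 were above 1, against 1.19% of all genes under that filter. MYOM2, a protein of the sarcomere M band, was at 2.16 FPKM in A549-Vector (526 reads) and 19.7 FPKM in A549-NICD1 (4783 reads), for a log2 fold change of 3.24 (interval 3.11 to 3.37). Of the ANKRD1 relatives, ANKRD23 was at 4.16 and 3.32 FPKM, for a log2 fold change of -0.27. ANKRD2 had 4 and 10 reads, as did MYPN, and each had a log2 fold change of 1.28 with an interval that held 0 (-0.42 to 3.50). ACTC1 had 14 and 34 reads and a log2 fold change of 1.31 (interval 0.40 to 2.35). The natriuretic peptide gene NPPB had 0 and 21 reads and was at least 7.28-fold higher against a floor of 3 reads, a bound that leaves out the counting error of the 21 reads, whereas MYOM3 had 11 and 1, for a log2 fold change of -2.88 (interval -8.83 to -0.62). Most muscle markers were too low to show a difference, and MYH7 and TNNT2 are also on the list of partners. Of 7 listed, 3 had 10 or more reads in either library, and TNNT2 and MYOG were at 0 reads in both. The summed level was 2.83 FPKM in A549-Vector, against 2.85 FPKM in A549-NICD1, most of it from ACTN2 (1.58 and 1.61 FPKM). Fibroblast markers had a summed level of 15.3 and 9.76 FPKM, with COL1A2 at 0 reads in both.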

How the data were processed

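Total RNA of A549-NICD1 and A549-Vector cells was sequenced as polyA libraries, 1 per condition. The authors deposited 1 value per gene and library, which was treated as FPKM. The submitters' processing notes name Bowtie2, HTSeq and the build hg38, with no role or version, and the annotation is not given in the sources used here. The 27 rows that hold a date number in place of a gene name were set aside.

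Whole reads were recovered from the deposited FPKM values alone. The ratio of the depths was read from 256 genes with equal reads, and the depth as the largest that made the lengths of most of 10178 genes whole. The share was 69.7%, against 34.5% at 2 times that depth and 80.2% at 0.5 times it. Lengths that are whole at a depth stay whole at 0.5 times it, so the depth rests on the rule of taking the largest. Each of the 17178 genes above 0 then gave whole reads, within 0.0002 reads or a relative 2e-09. Since multiples of the smallest length of a gene would serve too, the multiple nearest to its GENCODE 29 length was used. These reads add up to 105% of the depth in each library, and the smallest possible reads to 89.7% and 89.3%, so that reads of single genes can be off by a whole-number factor, which leaves ratios unchanged. The counting intervals, the read filters and the bounds against a floor do depend on that factor and on the depth. For 9 members the smallest length was used, and for ANKRD1 2 times it, so its intervals would be wider at the smallest length.

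The log2 fold change was that of reads + 0.5 over depth, with scaling by the trimmed mean of the log ratios (30% of ratios and 5% of levels trimmed at each end, factor 0.964 for A549-NICD1), so that folds of weakly counted genes are understated. Folds carry 95% Clopper-Pearson intervals and levels carry Poisson intervals. Between transcripts of GENCODE 29, 100-base windows of the members occurred in no other gene, except 2 of 89 windows of AMOTL2 in RPL39P5. The method was tested on simulated data made with the same GENCODE 29 lengths that choose the multiple. That test therefore cannot show whether the multiples chosen for the real data are right.

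The members, lists and motifs were chosen with earlier results of these data known, so none of them is an independent choice. Genes were named from a list where they passed a log2 fold change of 1 with at least 10 reads in a library, or were its highest or lowest with at least 100 reads summed. Some were named beyond that rule after their values were seen: kinases, TEAD factors, cofactors, AMOTL1, SRF, MRTFA, MRTFB, TAGLN and markers. The genes most like ANKRD1 were the 5 nearest in log2(FPKM + 0.1) among those with at least 100 reads summed. Protein sequences were not analysed here. Python 3.11.15, numpy 2.4.6, pandas 2.3.3, SciPy 1.17.1 and matplotlib 3.10.9 were used.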

Additional observations from a re-analysis of the deposited data

How the results depend on the processing

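No paired analysis was possible because neither condition had more than 1 library. The alternatives of scaling, pseudocount and filter were run on the folds of the members and of AMOT, FJX1, F3, GADD45A, CCDC80 and MYOM2, on the list medians and on the counts past a threshold over members, the target list (past 1) and all genes (past 1 and -1). Only the filter was varied for the rank of ANKRD1. They were not run on the neighbours, the motif classes, the nearest genes, the 1.5-fold counts over lists and all genes, or other named genes. The smallest whole reads were added after seeing the data. None of the 70 alternative log2 fold changes of members changed sign, and 68 stayed within the counting interval. The exceptions came from a pseudocount of 1 FPKM, with 3.74 for ANKRD1 and -0.25 for AXL, which that pseudocount and a mean of 1 FPKM or more also took from the count of members 1.5-fold lower (0 in each). The same pseudocount gave 0.77 for F3 and left 3 rather than 4 target-list genes above 1. For AMOT, scaling by total depth gave -1.01.

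Counts over all genes depended on how low genes were handled. The counts were 657 above 1 and 340 below -1 as reported. A pseudocount of 0.1 FPKM gave 314 and 129, one of 1 FPKM gave 45 and 7, no filter gave 1514 and 792, at least 100 reads summed gave 158 and 87, and a mean of 1 FPKM or more gave 88 and 32. ANKRD1 ranked 87 rather than 11 among the 15299 genes with 10 or more reads in either library. The median of the SRF/MRTF list was 0.0294 with a pseudocount of 1 FPKM, -0.0151 with at least 100 reads summed and -0.0160 where the mean was 1 FPKM or more. That of the 6 targets other than ANKRD1 was 0.55 with a mean of at least 1 FPKM, which leaves out AXL. The median of the muscle partners of ANKRD1, 0.74 over 13 genes, was 0.33 and 0.15 with pseudocounts of 0.1 and 1 FPKM, 1.28 without a filter, 0.36 with at least 100 reads summed, 1.76 over the 4 genes whose mean reached 1 FPKM and 0.55 with the smallest whole reads.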
